A study of Homo sapiens with 10 samples.

Results

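A set of 10 genes that build the mitotic spindle, form the chromosomal passenger complex and divide the cell were followed across maps of native Rb on chromatin in 2 ovarian cancer lines. They were INCENP, BIRC5 and CDCA8 of the passenger complex, PRC1, RACGAP1, ECT2 and ANLN of the central spindle and the cytokinetic ring, and TPX2, ASPM and HMMR of the spindle. The genes were chosen by name, and a peak was assigned to a gene when it overlapped the stretch from 2000 bp upstream to 500 bp downstream of any annotated start of its transcripts. These 10 are part of 19970 protein-coding genes examined in the same way, and all 10 had an Rb promoter peak in at least 3 of the 8 Rb libraries. The cells were Kuramochi and OVCAR-3, both long-established cultures of high-grade serous ovarian carcinoma with the genotype WT in the labels, and they were given INX-315, an inhibitor of the cell cycle kinase CDK2, at 300 nM or an equal volume of its solvent DMSO for 2 days. Rb was mapped by CUT&RUN, in which an antibody held on native chromatin guides a nuclease that cuts out the DNA near the bound protein. Each line contributed 2 Rb libraries per treatment and 1 library made with a mouse IgG2a control antibody from DMSO-treated cells. By the study's methods the replicates of a treatment were independent cultures within a single experiment, so p-values do not cover variation between experiments.

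The deposited lists held 5221 to 8794 peaks in the 4 DMSO libraries and 13031 to 17281 in the 4 INX-315 libraries, against 195 and 257 in the IgG2a libraries. No IgG2a peak lay at the promoter of any of the 10 genes. Peak size is given as summit height, the number of fragments over the summit divided by the genome-wide mean of fragments per base in that library, which ranged from 0.216 to 0.502 in the Rb libraries. Heights of the 10 genes rested on 5 to 75 fragments, so single values carry a large counting error. A gene without a listed peak lay below the caller's threshold in that library, which is not a measured 0. The lowest summit that a list still held had a height of 9.51 to 13.9. In bulk chromatin a larger share of cells with Rb at a promoter and more Rb per cell cannot be told apart.

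Rb holds back cell cycle genes by joining E2F transcription factors at their promoters, and phosphorylation by cyclin-dependent kinases releases it. Genes of DNA replication usually carry E2F sites, whereas genes of mitosis are known for a different element, the cell cycle genes homology region (CHR), often with CCAAT boxes bound by NF-Y close by. The CHR is read by the MuvB core, which forms the repressive DREAM complex with other members of the Rb family in resting cells and passes to MYBL2 and FOXM1 when cells divide. The passenger complex corrects the attachment of chromosomes and then moves to the midzone, where the central spindle proteins recruit the machinery that cleaves the cell.

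The sequence under the summits was read first. The choice of the genes went by name and not by these letters. Genes of mitosis are known for the CHR, however, so a high share of it does not stand apart from that choice. In the 200 bp centred on each gene's highest summit, a CHR, searched as TTTGAA or TTCGAA on both strands, was present in 8 of the 10 genes, INCENP, BIRC5, PRC1, RACGAP1, ECT2, TPX2, ASPM and HMMR. Of the 13734 protein-coding genes with an Rb promoter peak, 4.53% held one in the same window. CCAAT, again on both strands, was found in 5 of the 10 genes against 19.1% of all. An E2F site, searched as TTTCCCGC, TTTCGCGC, TTTGCCGC or TTTGGCGC on both strands, was found in none of the 10 windows and in 4.17% of all. A string is a description of the letters and no proof of a bound factor, and its absence says only that these letters are not in this window. The windows of the 10 genes had a GC content of 50% to 71.5% with a median of 61.2%, below the median of 69.5% over all windows, and the part of base composition in these shares was not tested. None of the searched strings overlapped another kind of string in the 10 windows.

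The 30 bases around the CHR of 9 genes are shown because this element is what most of the 10 genes have in common, with the CHR in capitals, read 5′ to 3′ on the strand of the gene from the hg38 genome. For CDCA8 and ANLN, whose summit windows held none, the CHR shown lies nearer the gene start. PRC1, HMMR and ECT2 held further CHR strings, not shown, that lie nearer their starts. These were centred 17.5 bp upstream in PRC1, 25.5 and 19.5 bp upstream in HMMR and 36.5 bp downstream in ECT2. Of the sites shown, that of ASPM lay outside every annotated exon. Each of the other sites shown touched an exon stretch annotated as untranslated in at least 1 GENCODE transcript of its gene.
INCENP, chr11:62123989-62124018, plus strand: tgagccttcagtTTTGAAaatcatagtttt
BIRC5, chr17:78214264-78214293, plus strand: ttaaccgccagaTTTGAAtcgcgggacccg
CDCA8, chr1:37692481-37692510, plus strand: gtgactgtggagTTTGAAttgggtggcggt
PRC1, chr15:90994830-90994859, minus strand: ccgcccgcgcacTTCGAAtccaaactgcgc
RACGAP1, chr12:50025474-50025503, minus strand: ttggtgaaggttTTCAAAccggagctgtgg
ECT2, chr3:172750808-172750837, plus strand: gaggagtcggcgTTTGAAgaggtggaactc
ANLN, chr7:36389824-36389853, plus strand: tcggcgctgaaaTTCAAATTTGAAcggctg
ASPM, chr1:197146765-197146794, minus strand: cggatgcaatcaTTCAAAtgaagcgccgcc
HMMR, chr5:163460191-163460220, plus strand: ttcgtttttcccTTTGAAtggccgtttacg

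The wider surroundings are shown for INCENP and ASPM to place the CHR among its CCAAT boxes, and for ANLN, whose window, like that of CDCA8, held no CHR. Each run is the longest stretch of the 200 bp window outside every annotated exon, and capitals mark the CHR and CCAAT strings in either direction. In INCENP the exon begins just before the CHR, so this run ends in front of it and holds 3 CCAAT boxes.
INCENP, chr11:62123829-62123997, plus strand: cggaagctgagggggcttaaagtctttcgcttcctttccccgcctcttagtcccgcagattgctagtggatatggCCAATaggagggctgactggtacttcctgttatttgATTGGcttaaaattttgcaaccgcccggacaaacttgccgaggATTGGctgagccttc
ASPM, chr1:197146705-197146904, minus strand: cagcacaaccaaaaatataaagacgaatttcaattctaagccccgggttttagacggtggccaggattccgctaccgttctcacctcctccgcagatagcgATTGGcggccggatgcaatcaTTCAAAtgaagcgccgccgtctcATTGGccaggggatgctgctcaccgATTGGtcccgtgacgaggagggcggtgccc
ANLN, chr7:36389557-36389756, plus strand: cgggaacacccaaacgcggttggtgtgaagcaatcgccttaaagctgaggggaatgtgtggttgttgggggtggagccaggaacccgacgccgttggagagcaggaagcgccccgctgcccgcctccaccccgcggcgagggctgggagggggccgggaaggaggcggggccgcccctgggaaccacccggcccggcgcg

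In 6 of the 8 windows with a CHR its centre lay within 40.5 bp of the summit. The CHR of BIRC5 and that of RACGAP1 were each 16.5 bp on the upstream side, TPX2's was 15.5 bp and PRC1's 17.5 bp on the downstream side, ASPM's was 25.5 bp downstream and ECT2's 40.5 bp upstream. In HMMR it lay 64.5 bp upstream of the summit and in INCENP 74.5 bp downstream. Each distance is to the gene's highest summit, found in a single library, and other libraries can place the summit farther away. RACGAP1's summits lay 22 to 138 bp downstream of the canonical start across libraries, and its CHR was centred 5.5 bp downstream. The summits of ASPM spread over 259 bp. Within 50 bp of the summit 6 of the 10 genes held a CHR against 2.06% of all, and within 150 bp 8 did against 6.87%. Of the 10 genes, 7 had an entry in the RefSeq promoter sequences of GRCh38.p14, which run from 250 bases before to 50 after the start, whereas BIRC5, RACGAP1 and TPX2 had none. All 7 of these promoters held a CHR against 13.4% of 15316 promoters, 6 held CCAAT against 36.6%, and none held an E2F string against 4.50%. In CDCA8 the CHR was centred 20.5 bp upstream of the RefSeq start, with 3 CCAAT strings within 113 bp. The CCAAT string nearest the start, centred 16.0 bp upstream, shares a base with this CHR. In ANLN a pair of CHR strings was centred 23.5 and 17.5 bp upstream.

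**Figure D1:**
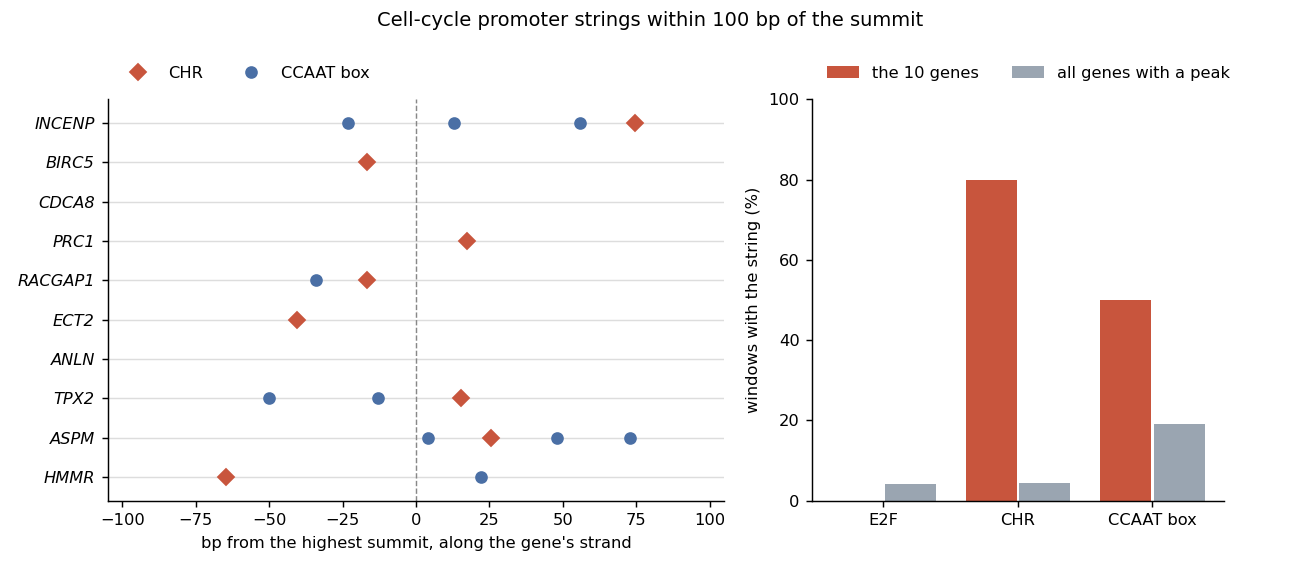
Left, positions of CHR (diamonds) and CCAAT (circles) strings in bp from each gene's highest Rb summit, along the strand of the gene. Right, percent of 200 bp summit windows with each string in the 10 genes and in all 13734 genes with a peak; CHR strings stood in 8 of the 10 windows against 4.53% of all, and E2F strings in none against 4.17%.

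Among the passenger complex genes, CDCA8 and INCENP carried Rb in all 8 libraries and BIRC5 mainly after INX-315. CDCA8 encodes borealin, which targets the complex to centromeres, and it had the tallest promoter peak of the 10 genes in each INX-315 library. Its heights were 24.3 and 33.9 with DMSO and 114 and 164 with INX-315 in OVCAR-3. In Kuramochi they were 56.2 and 71.1 with DMSO and 185 and 227 with INX-315. All 4 INX-315 libraries lay above all 4 DMSO libraries, and the ratio of mean heights was 4.78 in OVCAR-3 and 3.24 in Kuramochi.

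INCENP, the scaffold that holds the complex together and activates Aurora B, had heights of 34.4 and 23.9 with DMSO and 71.8 and 95.1 with INX-315 in OVCAR-3. In Kuramochi they were 15.7 and 42.1 with DMSO and 74.1 and 134 with INX-315. The groups did not overlap in either line, although the replicates of Kuramochi differed by more than those of OVCAR-3, with an SD of 18.7 around the DMSO mean of 28.9 and an SD of 42.6 around the INX-315 mean of 104 (n = 2 each). BIRC5, which encodes survivin, the subunit that reads a histone mark at centromeres, had no peak in the DMSO libraries of OVCAR-3 and heights of 75.0 and 40.4 with INX-315. In Kuramochi it had a peak in 1 DMSO library, at 18.4, and heights of 22.2 and 37.1 with INX-315. These 3 Kuramochi peaks of BIRC5 rested on 7 fragments in the DMSO library and on 9 and 8 in the INX-315 libraries.

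Of the central spindle and cytokinesis genes, PRC1 and ECT2 had peaks in all 4 INX-315 libraries, while RACGAP1 and ANLN each had peaks in 3. PRC1 crosslinks antiparallel microtubules at the midzone. Its heights in OVCAR-3 were 26.3 in 1 DMSO library, no peak in the other, and 55.5 and 66.6 with INX-315. In Kuramochi they were 34.2 in 1 DMSO library, no peak in the other, and 88.9 and 69.5 with INX-315. ECT2, the exchange factor that activates RhoA for the contractile ring, was at 17.9 in 1 DMSO library of OVCAR-3 and at 88.1 and 76.1 with INX-315. In Kuramochi it was at 22.5 and 26.3 with DMSO and at 61.7 and 69.5 with INX-315, a ratio of means of 2.69.

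RACGAP1, a subunit of centralspindlin that recruits ECT2, had no DMSO peak in OVCAR-3 and heights of 22.8 and 33.3 with INX-315. In Kuramochi it was the only gene of the 10 whose treatments overlapped, with a height of 18.4 in 1 DMSO library and 12.3 in 1 INX-315 library. These 2 small peaks rested on 7 and 5 fragments. ANLN encodes anillin, which scaffolds the contractile ring, and it was the only one of the 10 without a peak in any DMSO library. In OVCAR-3 it was listed in 1 INX-315 library, at 16.6, and in Kuramochi in both, at 46.9 and 37.1.

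The spindle genes TPX2, ASPM and HMMR had peaks in all 4 INX-315 libraries. TPX2, which activates Aurora A on spindle microtubules, was at 23.9 in 1 DMSO library of OVCAR-3 and at 71.8 and 90.3 with INX-315. In Kuramochi it was at 18.4 in 1 DMSO library and at 66.7 and 116 with INX-315. ASPM, which focuses spindle poles, had no DMSO peak in OVCAR-3 and heights of 55.5 and 54.7 with INX-315, close to each other with an SD of 0.552 (n = 2). In Kuramochi ASPM was already listed with DMSO, at 22.5 and 34.2, and stood at 71.6 and 92.6 with INX-315, a ratio of means of 2.90. HMMR, a microtubule-binding protein that works with TPX2, followed the same split, with no DMSO peak in OVCAR-3 and 39.2 and 35.7 with INX-315. The local background of these OVCAR-3 peaks was high, 1.59 and 1.89 fragments against genome-wide means of 0.3065 and 0.4206. Their listed fold enrichments were 5.03 and 5.55, against 13.7 and 16.3 for ASPM in the same libraries. In Kuramochi HMMR was at 15.7 and 26.3 with DMSO and at 51.9 and 50.9 with INX-315, a ratio of means of 2.44.

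**Figure D2:**
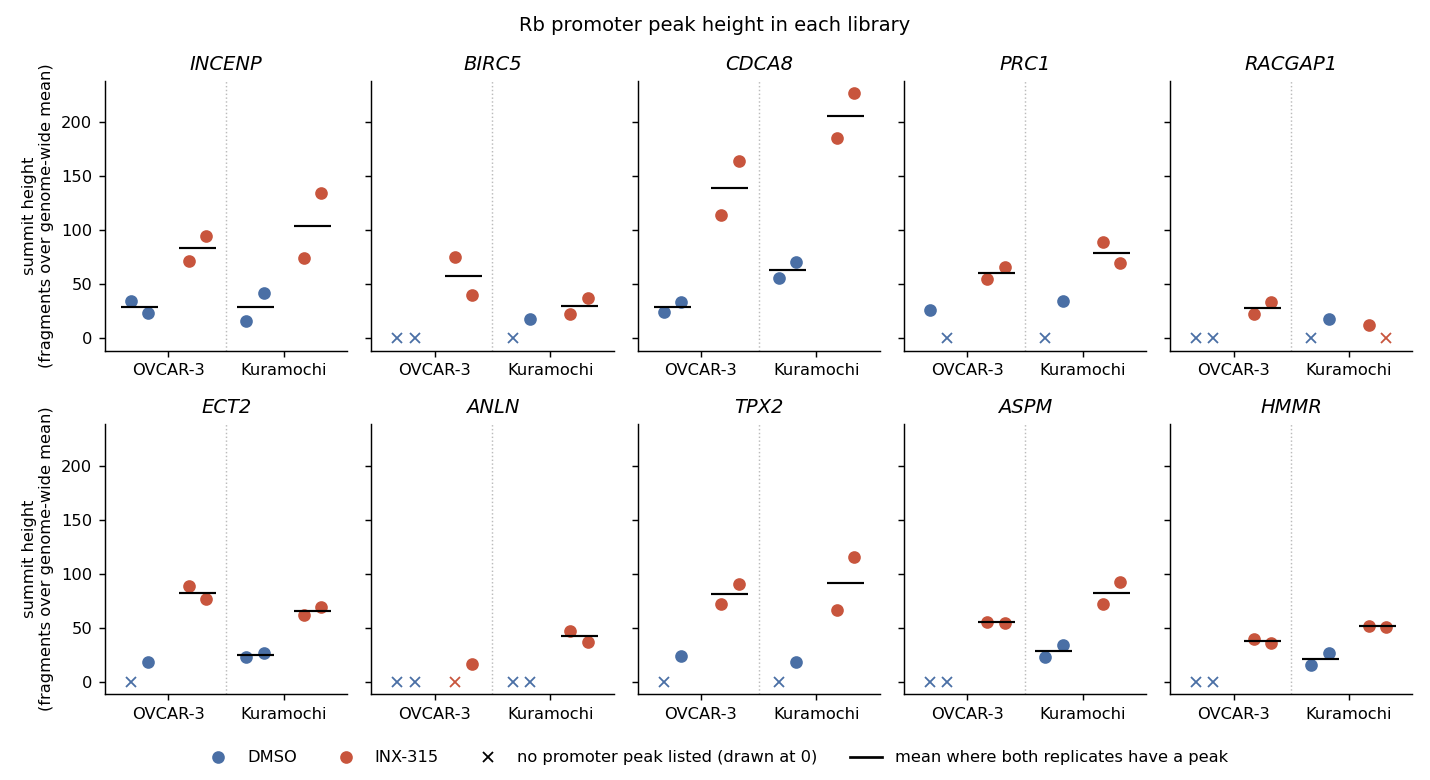
Summit height of the tallest Rb promoter peak of each gene in each library, in fragments over the genome-wide mean per base. Circles are libraries, crosses at 0 mark libraries without a listed peak, and lines are means where both replicates have a peak; 8 of the 10 genes had every INX-315 library above every DMSO library of its line in both lines, the exceptions being RACGAP1 in Kuramochi and ANLN in OVCAR-3.

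Counting a missing peak as the lowest value, both INX-315 libraries lay above both DMSO libraries for 9 of the 10 genes in OVCAR-3, where 55.1% of all protein-coding genes did so, and for 9 of 10 in Kuramochi, where 51.9% did so. ANLN was the exception in OVCAR-3 and RACGAP1 in Kuramochi. A 2-sided exact permutation test of the heights within lines has 36 arrangements and a smallest possible p of 0.0556, so it cannot pass 0.05. It gave that smallest p for 8 genes, 0.167 for ANLN and 0.278 for RACGAP1. The test was run for the 10 genes only, so the share of all genes at that p is not known.

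A gene was called bound where both replicates listed a promoter peak. With DMSO, INCENP and CDCA8 were bound in OVCAR-3, 2 of 10 genes against 26.8% of all protein-coding genes. In Kuramochi INCENP, CDCA8, ECT2, ASPM and HMMR were bound, 5 of 10 against 24.8%. With INX-315, 9 of 10 were bound in OVCAR-3, all but ANLN, against 55.5%, and 9 of 10 in Kuramochi, all but RACGAP1, against 53.2%. A peak was gained when it was listed in the 2 libraries with INX-315 and in none with DMSO. In OVCAR-3 these were BIRC5, RACGAP1, ASPM and HMMR, 4 of 10 against 16.2% of all genes, and in Kuramochi ANLN alone, 1 of 10 against 14.0%. No gene of the 10 lost a peak in the reverse sense.

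These counts depended on list length and on single DMSO libraries. With each list of a line shortened to its shortest list, 6162 entries for OVCAR-3 and 5221 for Kuramochi, 5 of the 10 genes were bound with INX-315 in each line, against 29.0% and 25.0% of all genes, none of the 10 was gained in OVCAR-3, where 2.33% of all genes were, and TPX2 in place of ANLN was gained in Kuramochi, where 2.03% were. Without the first DMSO library of Kuramochi 9 genes instead of 5 counted as bound with DMSO, against 39.0% of all genes. Without the second 4 instead of 1 were gained, against 27.0% of all. Without the first DMSO library of OVCAR-3 4 instead of 2 were bound with DMSO, against 37.0% of all.

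CDCA8 and INCENP were the only 2 of the 10 with a peak in all 8 libraries, and so the only 2 that entered the fit of log2 summit height over the 3762 promoters present in every library. With limma, CDCA8 was higher with INX-315 by 2.26 ± 0.43 (SE, n = 2 per group) on the log2 scale in OVCAR-3 (adjusted p = 1.35e-06) and by 1.70 ± 0.43 in Kuramochi (limma, adjusted p = 0.000247). INCENP was higher by 1.53 ± 0.43 in OVCAR-3 (limma, adjusted p = 0.000551) and by 1.95 ± 0.43 in Kuramochi (limma, adjusted p = 3.99e-05). In this fit limma took the spread from all promoters together, following height. These SEs and p-values therefore do not measure the spread between a gene's own 2 replicates. The Kuramochi value of INCENP was 1.24 without the first DMSO library of that line (limma, adjusted p = 0.0228) and 2.67 without the second (limma, adjusted p = 9.45e-07). These 2 calls stood among calls at nearly every promoter, 99.0% in OVCAR-3 and 95.8% in Kuramochi at an adjusted p under 0.1, all of them higher with INX-315. The median over the 3762 promoters was 1.78 in OVCAR-3 and 1.51 in Kuramochi on the same log2 scale.

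Relative to the median promoter of each library, neither gene passed the limma test in either line. The centred log2 difference of CDCA8 was 0.41 ± 0.22 in OVCAR-3 (limma, adjusted p = 0.266) and 0.18 ± 0.22 in Kuramochi (limma, adjusted p = 0.668). For INCENP it was -0.32 ± 0.31 in OVCAR-3 (limma, adjusted p = 0.592), the opposite sign to the uncentred value, and 0.44 ± 0.31 in Kuramochi (limma, adjusted p = 0.431). Centring turned the calls over all promoters into 139 higher and 334 lower in OVCAR-3 and 151 higher and 221 lower in Kuramochi. Without a spike-in among the values used, a change of total Rb on chromatin and a change of enrichment between libraries cannot be told apart.

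**Figure D3:**
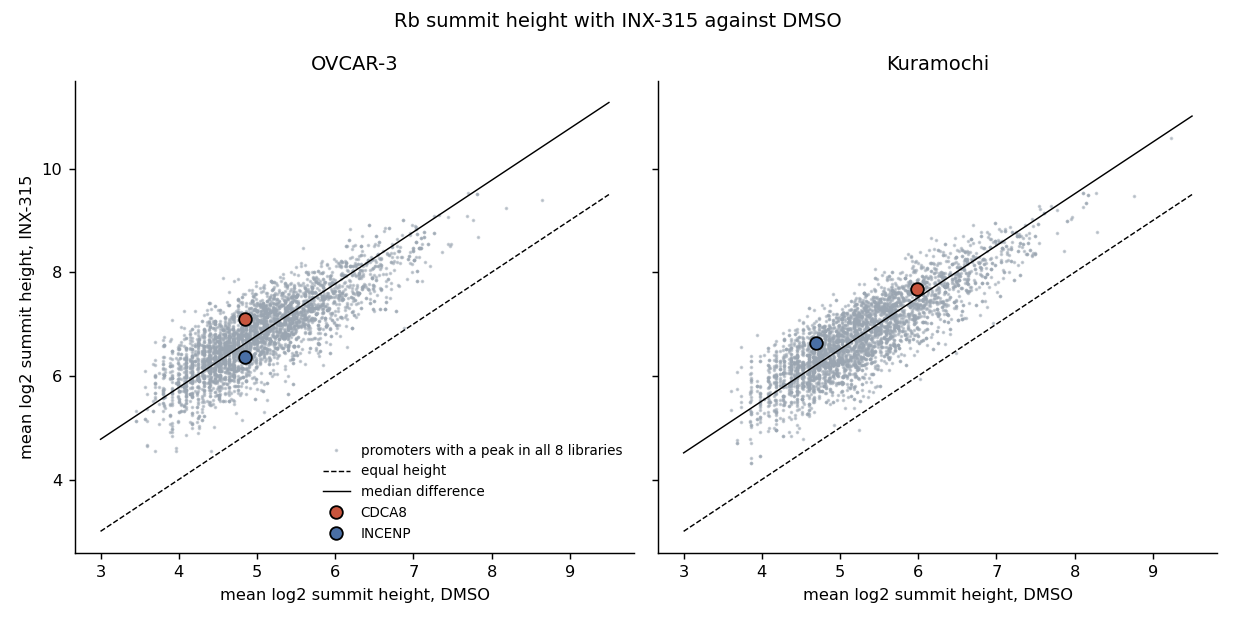
Mean log2 summit height with INX-315 (vertical) against DMSO (horizontal) for the 3762 promoters with a peak in all 8 Rb libraries, 1 panel per line. The dashed line marks equal height and the solid line the median difference, 1.78 in OVCAR-3 and 1.51 in Kuramochi; CDCA8 and INCENP lie within the cloud around that median.

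ECT2, ASPM and HMMR had a peak in all 4 Kuramochi libraries, which allowed a fit of that line alone, chosen after the values were seen. There ECT2 was higher with INX-315 by 1.43 ± 0.42 (limma, adjusted p = 0.00142), ASPM by 1.55 ± 0.43 (limma, adjusted p = 0.000791) and HMMR by 1.34 ± 0.41 (limma, adjusted p = 0.00180) on the log2 scale. Of the 4952 promoters in that fit, 95.7% were called higher, so these 3 calls again stood among calls at nearly every promoter. Their SEs again rest on a spread shared over promoters.

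The limma test of a difference in the INX-315 effect between the lines called 0% of the 3762 promoters in either direction, and 99 had an unadjusted p under 0.05. For CDCA8 the effect in Kuramochi minus that in OVCAR-3 was -0.56 on the log2 scale with a 95% interval of -1.76 to 0.64, and for INCENP it was 0.43 with an interval of -0.77 to 1.62. Both intervals reach past 1 log2 unit, so these data do not show that the lines respond alike. RACGAP1, ANLN and BIRC5, whose listed peaks differed most between the lines, could be tested only with missing libraries set to the lowest height in their lists. In that limma fit the difference in effect was -1.59 ± 0.49 for RACGAP1 (adjusted p = 0.137), 1.38 ± 0.48 for ANLN (adjusted p = 0.206) and -1.46 ± 0.63 for BIRC5 (adjusted p = 0.363), and none passed.

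Under DMSO, CDCA8 was higher in Kuramochi than in OVCAR-3 by 1.14 ± 0.43 on the log2 scale (limma, adjusted p = 0.0816), where 9.91% of promoters were called higher in Kuramochi. The adjusted p lay between 0.188 and 0.577 when either OVCAR-3 DMSO library, the second Kuramochi DMSO library or either Kuramochi INX-315 library was left out, and between 0.00625 and 0.447 with centred heights, the listed fold enrichment or the local background, so the call is not firm. With missing libraries at the lowest height CDCA8 had an adjusted p of 0.172 (limma), and ASPM was called higher in Kuramochi by 1.47 ± 0.44 (limma, adjusted p = 0.0805), where 3.23% of promoters were. INCENP differed by -0.16 ± 0.43 (limma, adjusted p = 0.873), by -0.67 ± 0.49 with the listed fold enrichment (limma, adjusted p = 0.705) and by -1.07 ± 0.51 with the local background of each peak in place of the genome-wide mean (limma, adjusted p = 0.154). With that local background CDCA8 differed by 1.24 ± 0.49 (limma, adjusted p = 0.0744), and a part of gene copy number was not tested.

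Ranks within a library do not depend on its depth scale. With INX-315 the median height rank of those of the 10 genes that were listed was the 76.5th and 62.4th percentile of all listed peaks in OVCAR-3 and the 74.4th and 67.6th in Kuramochi. The promoter peaks of all genes had median ranks of 59.2 and 64.7 in the same OVCAR-3 libraries, while the corresponding Kuramochi medians were 64.6 and 61.5. In the second OVCAR-3 library with INX-315 the median of the 10 genes thus lay below that of all genes. With DMSO the listed genes had median ranks of 63.1 and 55.2 in OVCAR-3, where all genes had 57.2 and 55.2. In Kuramochi their DMSO medians of 42.3 and 49.9 lay below the 56.7 and 60.9 of all genes. CDCA8 ranked between the 90.8th and 96.7th percentile in the 4 INX-315 libraries, and in Kuramochi it was already at the 89.8th and 90.4th with DMSO. RACGAP1 ranked between the 5.87th and 40.3rd percentile in the 3 INX-315 libraries that listed it.

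The summits of 1 gene spread over 75 to 310 bp between libraries, with the smallest spread in CDCA8 and the largest in ANLN. Median summits lay at or just inside the canonical start for TPX2 (21.5 bp downstream), BIRC5 (42.0 bp), RACGAP1 (120.5 bp) and ECT2 (137.0 bp). They lay upstream for INCENP (68.0 bp), ASPM (136.5 bp), ANLN (205.0 bp), PRC1 (300.5 bp), CDCA8 (353.0 bp) and HMMR (376.5 bp). INCENP peaks had a mean width of 634 bp with DMSO and 1180 bp with INX-315 in OVCAR-3, and 550 and 990 bp in Kuramochi. HMMR peaks of Kuramochi had a mean width of 329.5 bp with DMSO and 1191 bp with INX-315, whereas the CDCA8 peaks were wide from the start, 845 and 1154 bp in OVCAR-3 and 1086 and 1414 bp in Kuramochi. In the 7 cases where both replicates of both treatments of a line listed a peak, the mean width was larger with INX-315, by ratios of 1.30 to 3.61, and width was not tested. The median width over the promoter peaks of all genes also differed, with 559 and 626 bp in the DMSO and 895 and 999 bp in the INX-315 libraries of OVCAR-3, and 529 and 669 against 859.5 and 768 bp in those of Kuramochi.

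**Figure D4:**
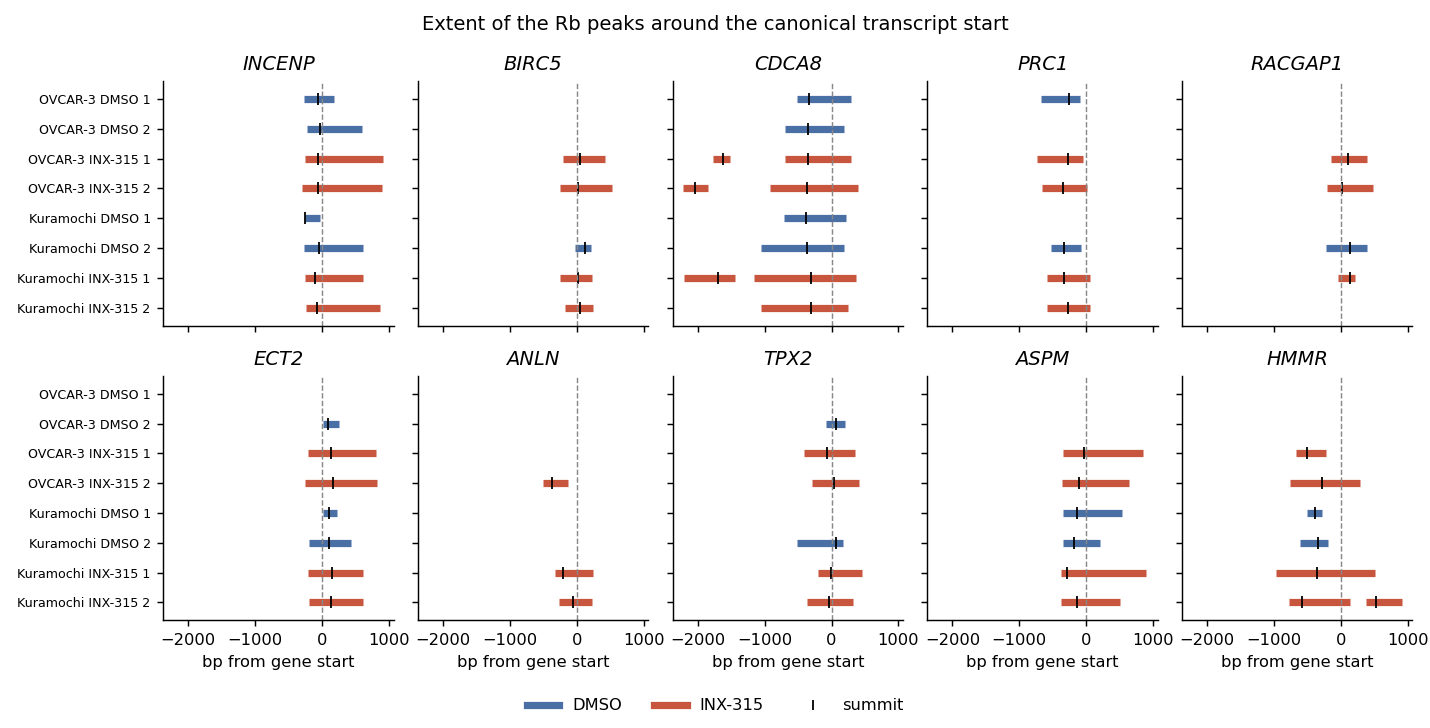
Extent of each Rb promoter peak (bars) and its summit (ticks) in bp from the canonical transcript start, upstream to the left, for the 8 Rb libraries. The summits of a gene line up across libraries, within 75 bp in CDCA8 and within 310 bp in ANLN. The CDCA8 panel also shows small peaks upstream in 3 INX-315 libraries, near the canonical start of C1orf109 on the opposite strand.

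Several of these peaks also overlapped the promoter stretch of another gene, so they cannot be assigned to 1 of the pair by overlap. CDCA8 shared its peak in all 8 libraries with C1orf109 on the opposite strand, and its summits lay on the C1orf109 side of the CDCA8 start. HMMR shared with NUDCD2 in 6 libraries and ANLN with a transcript start of MATCAP2 in 3. Along the strand of each of these genes, the canonical start of C1orf109 lay at -1987 bp from that of CDCA8. That of NUDCD2 lay at -530 bp from HMMR's and that of MATCAP2 at -22622 bp from ANLN's. The peak of INCENP also overlapped the promoter of the long non-coding RNA ENSG00000285656 in 8 libraries and that of TPX2 the promoter of ENSG00000289492 in 6. The remaining 5 genes, BIRC5, PRC1, RACGAP1, ECT2 and ASPM, shared their promoter peak with no other annotated gene in any library.

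A further 42 genes of these processes, in 3 lists, were counted in the same way. In OVCAR-3, 15 of the 42 were bound with DMSO, against 26.8% of all protein-coding genes, 38 with INX-315, against 55.5%, and 12 were gained, against 16.2%. In Kuramochi the numbers were 17 against 24.8%, 34 against 53.2% and 7 against 14.0%, and none was lost in either line. These shares of all genes are the background for the counts of each list that follow. Of the 6 partners of the passenger complex, none was bound with DMSO in either line, and with INX-315 5 were bound in OVCAR-3, all 5 gained, and 3 in Kuramochi, 2 of them gained, beside background shares of 16.2% and 14.0% for gained peaks. AURKB, the kinase of the complex, had no DMSO peak in any library and stood, with INX-315, at 22.8 and 33.3 in the OVCAR-3 libraries and at 66.7 and 74.1 in those of Kuramochi. HASPIN, the kinase that writes the histone mark read by survivin, likewise had none with DMSO. With INX-315 it reached 26.1 and 52.3 in OVCAR-3, and 37.0 and 83.4 in the Kuramochi libraries. RCC2 had none with DMSO in OVCAR-3, where it reached 32.6 and 42.8 with INX-315, and was at 36.9 in 1 DMSO library of Kuramochi against 71.6 and 83.4 with INX-315.

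Of the 16 further central spindle and cytokinesis genes, 6 were bound with DMSO in each line, against 26.8% and 24.8% of all genes, and 15 in OVCAR-3 and 12 in Kuramochi with INX-315, against 55.5% and 53.2%. In the limma fit stood 5 of them, of which 5 were called higher in OVCAR-3 and 4 in Kuramochi and none lower, where 99.0% and 95.8% of all promoters in the fit were called higher. CEP55, an organiser of abscission, was higher by 1.68 ± 0.43 in OVCAR-3 (limma, adjusted p = 0.000165) and by 1.48 ± 0.43 in Kuramochi (limma, adjusted p = 0.00113) on the log2 scale. RHOA, the GTPase that drives the contractile ring, and SEPTIN7, a core septin, were higher by 2.23 and 1.72 in OVCAR-3 and by 1.69 and 1.89 in Kuramochi, again on the log2 scale.

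Of the 20 further spindle assembly genes, 9 were bound with DMSO in OVCAR-3 and 11 in Kuramochi, against 26.8% and 24.8% of all genes, and 18 and 19 with INX-315, against 55.5% and 53.2%. In the limma fit stood 8 of them, of which 8 were called higher in OVCAR-3 and 7 in Kuramochi, again where 99.0% and 95.8% of all promoters were. TACC3, a partner of Aurora A on spindle microtubules, had the largest mean height with INX-315 in the lists, with 82.9 and 99.7 in the DMSO libraries of OVCAR-3 and 228 and 340.0 in its INX-315 libraries. In Kuramochi TACC3 was at 101 and 97.4 with DMSO and at 198 and 245 with INX-315. NUSAP1, which bundles spindle microtubules, was higher by 2.00 ± 0.42 in OVCAR-3 (limma, adjusted p = 7.25e-06) and by 1.35 ± 0.42 in Kuramochi (limma, adjusted p = 0.00202). DLGAP5, a stabiliser of kinetochore fibres, was higher by 0.95 ± 0.42 in OVCAR-3 (limma, adjusted p = 0.0253), whereas its Kuramochi value was 0.27 ± 0.42 (limma, adjusted p = 0.522).

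The genes outside these lists with the pattern most like the 10 were WDR17, CMC1 and ABHD4. Likeness was the Euclidean distance over the 8 libraries between a gene's percentile rank of height, set to 0 without a peak, and the median profile of the 10 genes, and it was 10.8, 14.3 and 15.7 for these 3. HMMR, the nearest of the 10 to their own median profile, was at 34.7, and CDCA8, the farthest, at 142.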

How the data were processed

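Rb CUT&RUN was analysed in 8 Rb and 2 IgG2a libraries, grouped by the sample labels. The authors aligned paired-end reads to hg38 (Bowtie2 version 2.3.4.1) and called peaks in each library separately (MACS2 version 2.2.7.1) against the IgG2a library of the line at a q-value of 0.05, per their methods and processing notes. The deposited lists give each peak's summit, a fold enrichment (a linear ratio) and, on the −log10 scale, the p-value and the q-value from the authors' caller. Read totals were not used here. Whole fragments over each summit and the genome-wide mean were recovered from the deposited fold enrichment and p-value within a relative tolerance of 3e-05, for 100% of peaks (a single solution for at least 98.6%). On 4000 simulated peaks 100% were recovered.

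A promoter ran from 2000 bp before to 500 bp after any of 252835 GENCODE release 44 starts, with at least 1 bp of overlap, and the highest summit represented a gene. Log2 heights were fitted with limma (version 3.58.1, R version 4.3.3) over 4 groups with an intensity trend, and p-values were adjusted by Benjamini-Hochberg over all promoters, called under 0.1. On simulated data for the OVCAR-3 contrast with 200 of 3762 promoters changed, limma recovered 5.50% of 2-fold and 85.0% of 4-fold changes. In the real fit nearly all promoters were called, which loosens the cutoff of the adjustment. These shares therefore do not give the detection limit of the uncentred treatment contrasts. All 10 genes were named with their values, and of the other lists at most 3 genes each that were gained or called, tallest with INX-315 first. The 3 genes most like the 10 were taken by the distance given in the text. The sequence at 1 of the 10 genes is not reported here. The genes and lists were chosen with earlier results of these data known.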

Additional observations from a re-analysis of the deposited data

How the results depend on the processing

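With lists cut to equal length by p-value, the genes bound with INX-315 and those with INX-315 above DMSO each numbered 5 in OVCAR-3 and 5 in Kuramochi. Of all genes 29% and 25% were bound with INX-315, and 29% and 24.8% had INX-315 above DMSO. In OVCAR-3 0 were gained, against 2.33% of all genes. With 1 library left out at a time, genes bound with DMSO ranged from 2 to 4 for OVCAR-3 and from 5 to 9 for Kuramochi (the share of all genes rose from 26.8% to 37.0% and from 24.8% to 39.0%). Genes gained ranged from 4 to 6 and 1 to 4, where the share of all genes reached 25.8% and 27%. Genes in all libraries ranged from 2 to 4 and 5 to 8, where it reached 36.3% and 37.9%. Genes bound with INX-315 ranged from 9 to 10 in both, where it reached 64.9% and 59.8%. Promoters called higher with INX-315 then numbered 3458 to 4674 for OVCAR-3, and for Kuramochi 2971 to 4132, with 0 lower, and the line difference under DMSO 72 to 866 higher and 15 to 104 lower. Centred libraries gave 139 higher and 334 lower in OVCAR-3, 151 and 221 in Kuramochi, 9 higher for the difference in effect, and 637 higher and 746 lower between lines under DMSO. With peaks in at least 2 of 8 libraries and missing ones at the lowest height, 11817 were higher in OVCAR-3, 10479 higher and 1 lower in Kuramochi, 37 higher and 157 lower in effect, and 157 lower under DMSO. Under DMSO the line difference gave 222 higher at 0.05, 21 higher and 2 lower with the listed fold enrichment, and 133 lower with the local background.

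The replicate numbers do not pair the libraries (correlation of same-numbered deviations -0.042 in OVCAR-3 and -0.0079 in Kuramochi). A replicate block gave 3745 higher in OVCAR-3, 3697 in Kuramochi and 1 lower for the difference in effect. INCENP changed sign when centred, at -0.32 in OVCAR-3. Without single libraries its difference in effect ranged from -0.28 to 1.14 and its line difference under DMSO from -0.87 to 0.56. In every one of these settings the cause was not tested. Each line fitted alone was an alternative chosen after seeing the data. Of 260 alternative counts 222 stayed within 1.5 times the reported count, and of 142 alternative log2 differences 126 kept direction and call. Heights rest on few fragments, so small differences can go undetected at this depth.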
